A study of Homo sapiens with 4 samples.

Results

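The transcripts of 9 genes of transforming growth factor-β (TGF-β) and bone morphogenetic protein (BMP) signalling were read in 4 RNA-seq libraries of a colorectal cancer study. They are the ligands TGFB1, TGFB2 and BMP4, the receptors TGFBR1 and TGFBR2, the inhibitor SMAD7, and ID1, ID2 and ID3. The 9 were chosen by name, with earlier results of these data known, from the 58735 genes of the expression table. Shares of all genes set beside their counts below are therefore a description and not a test. Each of the 9 names was found once in the table, and all 9 passed the filter on low values used below. By its label, each library came from 1 condition, adherent culture or spheroids, of HCT116 or LOVO, both labelled wild type. These are the names of established human colon cancer cell lines. The libraries labelled LOVO went against that label in their markers, as given below. Adherent cells were untreated and grew in RPMI-1640 with fetal bovine serum. Spheroids grew in ultralow attachment dishes in serum-free DMEM/F12 with B27, N2 and the growth factors bFGF and EGF. The labels give the spheroids a treatment of 1 mg/ml and name no agent, whereas the study's methods name oxaliplatin, a DNA-damaging platinum drug, and give the dose in μg/ml. Growth form, medium and drug therefore changed together and cannot be told apart. The comparison of spheroids with adherent cells addresses what distinguishes drug-exposed, stem-like spheroids from the cells they were grown from.

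TGF-β and BMP ligands are secreted dimers that bring type II and type I receptor kinases together on the cell surface. The type I receptor then phosphorylates SMAD proteins, SMAD2 and SMAD3 for TGF-β and activin, and SMAD1, SMAD5 and SMAD9 for BMP, and these enter the nucleus with SMAD4. The ID genes are classical targets of the BMP branch, and their products hold basic helix-loop-helix transcription factors away from DNA. In the intestine, BMP signals come largely from the mesenchyme and restrain stem-cell renewal in the crypt. Colorectal cancers with microsatellite instability, HCT116 among them, often carry a frameshift in an adenine repeat of the TGFBR2 coding sequence. An expression value gives the amount of a transcript and not whether it encodes a complete protein.

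The values are FPKM, fragments per kilobase of gene scaled to a fixed total of library fragments, so levels can be compared between genes. The reads behind each FPKM were recovered from it and from the gene length, and they numbered 15483569 to 20429147 over all genes of a library. Each condition had 1 library, so there was no replicate error and no test within a line. The 95% intervals given here are exact intervals on those reads and cover counting error only. A count of 3 reads, taken as the floor, corresponds to between 0.147 and 0.179 FPKM in a gene of 1 kb. Fold changes are given on the log2(FPKM + 1) scale, on which low levels appear to differ less than they do, and as log2 ratios of FPKM without a pseudocount where the counting interval is given. The genes compared were the 14429 whose FPKM averaged 1 or more across the libraries. In bulk RNA, fewer cells of a type and less RNA per cell cannot be told apart.

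The libraries labelled LOVO went against their label in the markers of colon epithelium. EPCAM, the epithelial adhesion molecule, had 85.6 and 79.3 FPKM in HCT116, on 4397 and 3356 reads, but 42 and 76 reads in the LOVO-labelled libraries. E-cadherin, CDH1, had 13 reads and 1 read in the latter, and the intestinal factor CDX2 had 0 reads in both, against 323 and 216 in HCT116. CDX1 and VIL1 also had 0 reads there, but no more than 11 in either HCT116 library. Of 10 epithelial markers, 6 and 7 reached 1 FPKM in HCT116, against 3 and 4 in the libraries labelled LOVO, where the keratin KRT8 was still at 189 and 81.6 FPKM. Of 7 fibroblast markers, 1 reached 1 FPKM in each HCT116 library, and 4 and 5 did in the libraries labelled LOVO, where the matrix proteoglycan LUM was at 31.4 and 50.4 FPKM. COL1A2 (0 reads and 1 read) and THY1 (10 and 3 reads) stayed near 0 there. The summed fibroblast markers were 54.1 FPKM in the adherent library labelled LOVO and 72.8 in its spheroids, and the summed epithelial markers were 327 and 187. Between adherent HCT116 cells and their spheroids these sums also differed, with 5.63 and 16.1 FPKM for fibroblast and 1754 and 1288 for epithelial markers. Most of that fibroblast sum was COL1A1, at 5.51 and 15.5 FPKM. The summed endothelial markers, 5 in number, were 1.19 and 7.94 FPKM in the libraries labelled LOVO and 0.327 and 0.861 in HCT116. PECAM1 alone went from 0.0359 FPKM in the adherent library labelled LOVO to 6.35 in its spheroids. Of the 6 leukocyte markers, 1 reached 1 FPKM, in the LOVO-labelled spheroids. The part of these differences in the results below was not tested, and the label is kept only as the name of the libraries. Across the genes compared, the log2 values of spheroids and adherent cells correlated with r = 0.948 in HCT116 and 0.886 in the libraries labelled LOVO, against 0.651 to 0.699 between lines.

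The ID genes differed in opposite directions in the 2 lines. All 3 were 1.40-fold to 1.67-fold higher in HCT116 spheroids than in adherent HCT116 cells, and 2.81-fold to 15.6-fold lower in the LOVO-labelled spheroids than in the adherent library of that label. BMP4, SMAD7 and TGFBR1 had the same pair of signs, with smaller differences than the ID genes in the libraries labelled LOVO. TGFB1, in contrast, was higher in the spheroids of both lines, 1.25-fold in HCT116 and 3.67-fold in the libraries labelled LOVO.

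**Figure D1:**
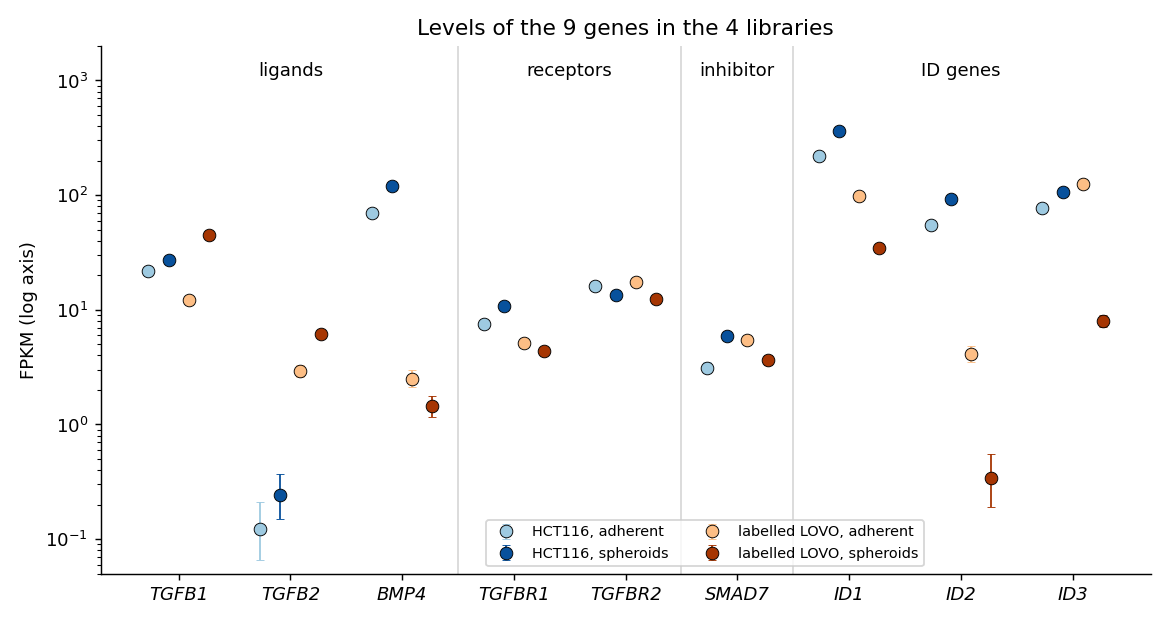
FPKM of the 9 genes (log axis) in the 4 libraries, grouped by role, with 1 point per library and exact 95% counting intervals as bars where they are wider than the point. ID1, ID2 and ID3 lie higher in HCT116 spheroids than in adherent HCT116 cells and lowest in the LOVO-labelled spheroids.

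Among the ligands, TGFB1 encodes the most widely expressed TGF-β isoform and lies on the minus strand at chr19:41301587-41353911 of GRCh38. In HCT116 its level was 22.0 FPKM in adherent cells and 27.4 in spheroids, and in the libraries labelled LOVO it was 12.2 in adherent cells and 44.7 in spheroids. The LOVO-labelled libraries thus held both its lowest and its highest level, with the 2 HCT116 libraries between them, and each neighbour in this order was separated by its counting interval. The log2 fold change of spheroids over adherent cells was 0.31 in HCT116 and 1.80 in the libraries labelled LOVO, where 358 of the 14429 genes compared lay above it. Of its 3238 exonic bases, 215 overlap HNRNPUL1 on the opposite strand, and whether reads were counted by strand is not given in the sources used here.

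TGFB2, a second TGF-β isoform on the plus strand at chr1:218346235-218444619, was low in HCT116. There it had 0.124 FPKM (13 reads) in adherent cells and 0.243 (21 reads) in spheroids. In the libraries labelled LOVO it had 2.93 FPKM (271 reads) in adherent cells and 6.10 (632 reads) in spheroids. The 2 LOVO-labelled libraries were both above the 2 HCT116 libraries, 23.7-fold in adherent cells and 25.1-fold in spheroids. The log2 ratio, spheroids over adherent cells, was 1.06 (0.85 to 1.27) in the libraries labelled LOVO. In HCT116 it was 0.97 with an interval from -0.09 to 2.09, so a difference was not detectable at this depth. TGFB2-OT1, a gene within the TGFB2 exons, shares 1371 of their 5151 bases and is listed at 0 reads in all 4 libraries.

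BMP4, the BMP ligand of the 9, showed the reverse order between lines. On the minus strand at chr14:53949736-53958761, it had 69.4 FPKM in the adherent and 119 in the spheroid library of HCT116, but 2.51 and 1.45 in those labelled LOVO. Both HCT116 libraries were thus far above both others, and only 3 of the genes compared lay lower than BMP4 in the LOVO-labelled spheroids relative to HCT116 spheroids, an 82.2-fold difference. Within the lines, spheroids had 1.72-fold more BMP4 in HCT116 (log2 ratio 0.78, interval 0.73 to 0.84). In the libraries labelled LOVO they had 1.73-fold less (log2 ratio -0.79, interval -1.19 to -0.40), on 139 and 90 reads.

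Both receptor genes stayed within a log2 fold change of 1 in each line. TGFBR1, the type I receptor kinase for TGF-β, is on the plus strand at chr9:99104038-99154192. Adherent cells and spheroids had 7.48 and 10.9 FPKM in HCT116, and 5.18 and 4.36 in the libraries labelled LOVO. HCT116 spheroids were highest and LOVO-labelled spheroids lowest, with log2 ratios, spheroids over adherent cells, of 0.54 (0.42 to 0.66) and -0.25 (-0.41 to -0.08).

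TGFBR2, the type II receptor that binds the ligand first, is on the plus strand at chr3:30606502-30694142. HCT116 had 16.3 FPKM in adherent cells and 13.4 in spheroids, and the libraries labelled LOVO had 17.6 and 12.4. It was the only one of the 9 genes that was lower in spheroids than in adherent cells of both lines, with log2 ratios of -0.28 (-0.39 to -0.17) in HCT116 and -0.51 (-0.62 to -0.40) in the libraries labelled LOVO. It also differed least between the lines, with a log2 difference, LOVO-labelled minus HCT116, of 0.11 in adherent cells and -0.11 in spheroids. The counting interval of the latter reached 0.00, and with the values rescaled to TPM (transcripts per kilobase, scaled to the same total in each library) it turned to 0.11.

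SMAD7 is an inhibitory SMAD that is induced by the pathway and directs ubiquitin ligases to the type I receptors. On the minus strand at chr18:48919853-48952052, it went from 3.12 FPKM in adherent cells to 5.91 in spheroids of HCT116, and from 5.47 to 3.63 in the libraries labelled LOVO. The levels of the 2 lines crossed, and HCT116 spheroids and the adherent library labelled LOVO were not separated by counting error (log2 ratio 0.11, interval -0.07 to 0.29). The log2 ratio, spheroids over adherent cells, was 0.92 (0.72 to 1.13) in HCT116 and -0.59 (-0.79 to -0.39) in the libraries labelled LOVO.

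ID1, ID2 and ID3 were the genes among the 9 that were furthest below adherent cells in the LOVO-labelled spheroids. They encode small helix-loop-helix proteins without a DNA-binding region, and many stem and progenitor cells express them. The 250 bases before the RefSeq start of each gene are shown because the 3 genes shared a sign within each line while their levels differed. The sequences are from RefSeq on GRCh38.p14, written 5′ to 3′ on the strand of the gene. They cover chr20:31605039-31605288 on the plus strand for ID1, chr2:8681806-8682055 on the plus strand for ID2 and chr1:23559502-23559751 on the minus strand for ID3. The RefSeq start is not always the outer start of the gene as counted here. The ID2 and ID3 windows lie within the gene coordinates given below. The ID1 window lies before its gene except for its last bases. Capitals mark matches, on either strand, to CAGAC (a SMAD3 and SMAD4 binding motif), GGCGCC (a GC-rich motif bound by SMAD1 and SMAD5), CCAAT and TATAA.
ID1: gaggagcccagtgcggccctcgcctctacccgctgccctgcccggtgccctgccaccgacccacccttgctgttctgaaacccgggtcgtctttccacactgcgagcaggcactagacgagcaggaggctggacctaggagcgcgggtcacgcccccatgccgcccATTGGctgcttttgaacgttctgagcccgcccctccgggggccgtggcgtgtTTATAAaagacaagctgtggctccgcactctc
ID2: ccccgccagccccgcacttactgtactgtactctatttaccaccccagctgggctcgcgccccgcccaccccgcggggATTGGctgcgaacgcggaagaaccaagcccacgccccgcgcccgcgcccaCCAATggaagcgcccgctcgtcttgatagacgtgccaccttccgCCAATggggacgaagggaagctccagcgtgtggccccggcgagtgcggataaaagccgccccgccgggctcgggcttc
ID3: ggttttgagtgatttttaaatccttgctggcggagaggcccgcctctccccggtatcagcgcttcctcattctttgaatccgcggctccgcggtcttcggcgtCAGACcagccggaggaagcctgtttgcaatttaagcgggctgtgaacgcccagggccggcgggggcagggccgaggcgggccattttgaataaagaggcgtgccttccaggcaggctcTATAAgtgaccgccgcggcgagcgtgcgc
ID1 held CCAAT on the reverse strand, beginning 84 bases before the start, and the overlapping forward and reverse TATAA matches 31 and 32 bases before it. ID2 held 3 CCAAT matches, at 172 bases (reverse strand), 122 and 78, and no TATAA. ID3 held CAGAC at 147 bases and TATAA at 29. None of the 3 windows held GGCGCC, and sequence further upstream was not searched, so a motif missing here may lie elsewhere. Over 34788 windows of this length in the same set, 38% held CAGAC, 16.4% GGCGCC, 32% CCAAT and 19% TATAA. These matches are letters in this window and do not show that a factor binds.

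ID1, on the plus strand at chr20:31605283-31606515, had the highest level of the 9 genes in both HCT116 libraries. The adherent and spheroid libraries of HCT116 had 218 and 359.6 FPKM, and those labelled LOVO had 97.9 and 34.9. Both HCT116 libraries lay above both LOVO-labelled libraries, and all neighbours in the order were separated by counting error. The log2 ratio, spheroids over adherent cells, was 0.72 (0.67 to 0.77) in HCT116 and -1.49 (-1.60 to -1.37) in the libraries labelled LOVO.

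ID2, on the plus strand at chr2:8678845-8684453, differed most between the lines in spheroids. In HCT116 it had 54.8 FPKM in adherent cells and 91.7 in spheroids. The libraries labelled LOVO had 4.12 FPKM (163 reads) in adherent cells and 0.338 (15 reads) in spheroids. In spheroids the LOVO-labelled library was 271-fold below HCT116, and 1 of the genes compared lay lower on the log2(FPKM + 1) scale. Its log2 ratio, spheroids over adherent cells, was 0.74 (0.67 to 0.82) in HCT116 and -3.61 (-4.48 to -2.84) in the libraries labelled LOVO. On the log2(FPKM + 1) scale the latter was -1.94, since the spheroid level was below the pseudocount. The antisense gene ID2-AS1 shares 38 of the 2205 exonic bases and had 36, 21, 2 and 5 reads in the 4 libraries, in the same order.

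ID3, on the minus strand at chr1:23557918-23559794, had the largest within-line difference of the 9 genes. HCT116 had 76.5 FPKM (2802 reads) in adherent cells and 107 (3222 reads) in spheroids. The libraries labelled LOVO had 125 FPKM (4015 reads) in adherent cells and 7.97 (288 reads) in spheroids. The adherent library labelled LOVO was therefore the highest of the 4 and its spheroids the lowest. The log2 fold change in the libraries labelled LOVO was -3.81, and 5 of the 14429 genes compared lay lower. In HCT116 it was 0.48.

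Summed over ID1, ID2 and ID3, the level in HCT116 was 349 FPKM in adherent cells and 558 in spheroids, and in the libraries labelled LOVO it was 227 and 43.2. ID1 made up 62.4% and 64.4% of that sum in the 2 HCT116 libraries, with little change in the shares of ID2 (15.7% and 16.4%) and ID3 (21.9% and 19.1%). In the adherent library labelled LOVO the main member was ID3, with 55.0% of the sum. In the LOVO-labelled spheroids it was ID1, with 80.8%, and ID2 was under 1% with 0.783%.

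**Figure D2:**
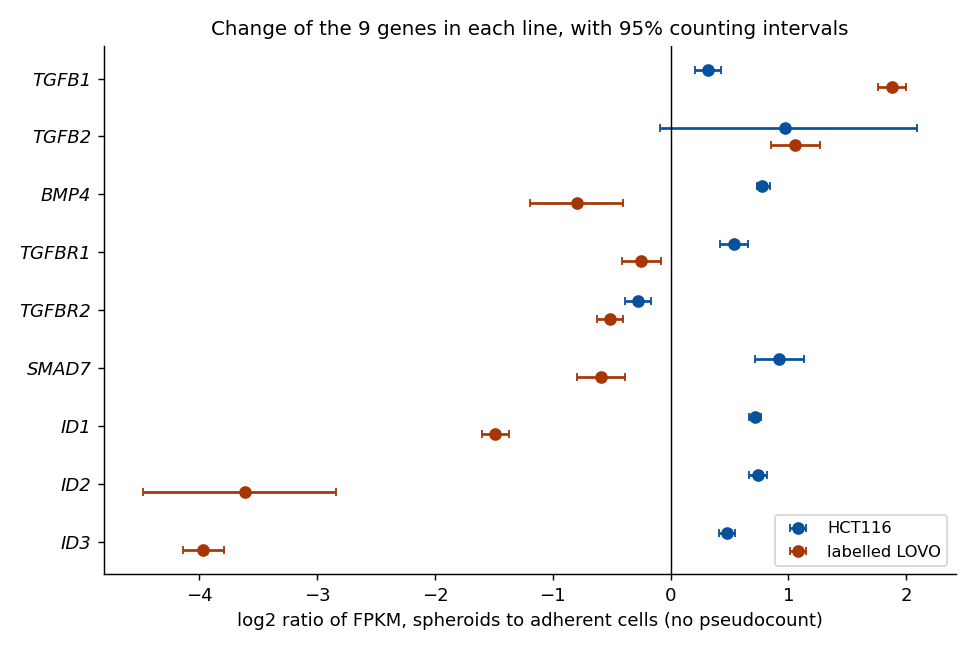
Log2 ratio of FPKM, spheroids to adherent cells, for the 9 genes in HCT116 and in the libraries labelled LOVO, with exact 95% counting intervals and the line at 0 marking no difference. The intervals of TGFBR1, SMAD7, BMP4, ID1, ID2 and ID3 lie above 0 in HCT116 and below 0 in the libraries labelled LOVO, and that of TGFB2 in HCT116 includes 0.

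In HCT116, none of the 9 genes passed a log2 fold change of 1, against 5.52% of the 14429 genes, and none passed 2, against 0.707%, and counts of 0 of 9 are near such shares. Of the 9, 8 lay above 0, against 45.8% of all genes, and the median was 0.49 for the 9 genes and -0.03 for all genes. The 8 include TGFB2, which had 13 and 21 reads in HCT116 and a counting interval that included 0. It passed the filter only through its levels in the libraries labelled LOVO. SMAD7, BMP4, ID1 and ID2 were in the upper tail, with 630 to 749 genes above them.

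In the libraries labelled LOVO, 4 of the 9 genes passed a log2 fold change of 1, TGFB1 upwards and the 3 ID genes downwards, against 16.4% of all genes. In single directions the backgrounds were 8.57% for higher and 7.85% for lower. ID3 alone passed 2, where 2.75% of all genes did so in either direction and 0.943% did so downwards. Here 2 of the 9 genes, TGFB1 and TGFB2, lay above 0, against 45.5% of all genes, and the medians were -0.48 and -0.06. With the values rescaled to TPM, the share of the genes past 1 in these libraries that were higher moved from 52.2% to 70.0%, and TGFB2 also passed 1, with 1.18. With pseudocounts of 0.1 and 0.01 it passed 1 as well, with 1.03 and 1.05.

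The signs in the 2 lines were opposite for 6 of the 9 genes, TGFBR1, SMAD7, BMP4, ID1, ID2 and ID3, against 35.8% of all genes compared. All 6 were higher in HCT116 spheroids and lower in the LOVO-labelled spheroids, which held for 17.9% of all genes. The difference between the changes, LOVO-labelled minus HCT116 on the log2(FPKM + 1) scale, was -4.28 for ID3, -2.67 for ID2, -2.18 for ID1, -1.29 for BMP4, -1.23 for SMAD7, -0.69 for TGFBR1 and -0.21 for TGFBR2. It was 1.49 for TGFB1 and 0.71 for TGFB2. With 1 library per condition these differences could not be tested.

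**Figure D3:**
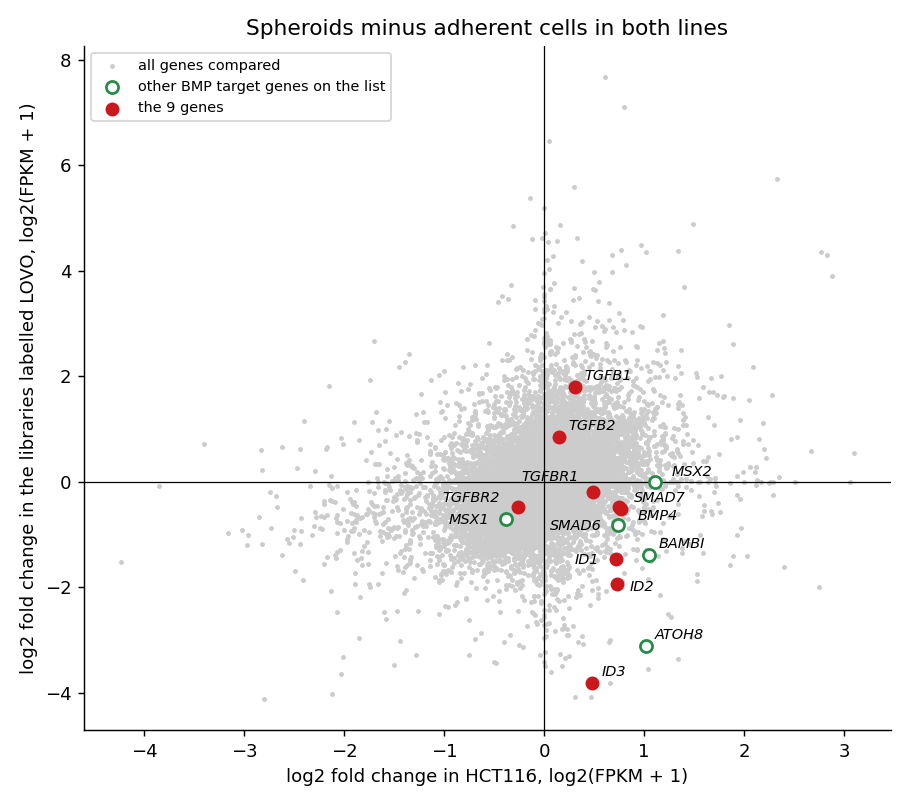
Log2 fold change of spheroids over adherent cells on the log2(FPKM + 1) scale, HCT116 on the horizontal and the libraries labelled LOVO on the vertical axis, for the 14429 genes compared (grey), the 9 genes (red) and the other BMP target genes on the list (green circles). The ID genes, SMAD7 and BMP4 lie in the lower right quadrant, and TGFB1 and TGFB2 in the upper right.

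Between the lines, the adherent LOVO-labelled cells differed from adherent HCT116 cells past a log2 fold change of 1 in 4 of the 9 genes, against 33.8% of all genes. TGFB2 was higher (17.4% of all genes), and BMP4, ID1 and ID2 were lower (16.4% of all genes), by 27.6-fold, 2.23-fold and 13.3-fold. BMP4 and ID2 passed 2, as did 10.9% of all genes, 5.59% downwards. In spheroids 6 of the 9 genes passed 1, against 32.7% of all genes, and 5 passed 2, against 10.4%. TGFB2 was again higher, against a background of 17.7% past 1 and 5.68% past 2. TGFBR1, BMP4, ID1, ID2 and ID3 were lower in the LOVO-labelled spheroids, all but TGFBR1 past 2, against 15% of all genes past 1 and 4.71% past 2. ID3 was 1.63-fold higher in the LOVO-labelled than in the HCT116 adherent cells and 13.4-fold lower in the spheroids. TGFB1 crossed the other way, from 1.81-fold lower to 1.63-fold higher.

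A limma fit over both lines, with the cell line as covariate and the lines standing in for replicates, had 1 residual degree of freedom. It called 0 of 14429 genes at an adjusted p under 0.05 (limma, Benjamini-Hochberg), with 1545 genes (10.7%) under 0.05 before adjustment and a smallest adjusted p of 0.462. Among the 9 genes, TGFB1 had the smallest p, with a mean log2 fold change of 1.05 (SE 0.42) and an adjusted p of 0.464 in limma, higher in 2 of 2 lines. ID3 had a mean of -1.67 (SE 1.02) and an adjusted p of 0.527 in limma, and lay lower in 1 of 2 lines. The other 7 had limma adjusted p-values from 0.539 to 0.904.

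The wider pathway was read in 13 role lists holding 88 genes, of which 66 passed the filter. In HCT116, 44 of the 66 lay above 0 and 22 below, against 45.8% of all genes above 0. Past a log2 fold change of 1, 6 were higher and 4 lower, and the median was 0.13. In the libraries labelled LOVO, 27 lay above 0 and 37 below, against 45.5% of all genes above 0, 12 were higher and 11 lower past 1, and the median was -0.13. Without the 9 genes, 17.5% of the 57 remaining genes passed 1 in HCT116, against 5.52% of all genes, and 33.3% did in the libraries labelled LOVO, against 16.4%. The lists, like the 9 genes, were chosen with earlier results of these data known. These shares are therefore a description and not a test.

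Among TGF-β and activin ligands, 3 of the 7 compared were higher past 1 and 1 was lower in the libraries labelled LOVO, against 8.57% and 7.85% of all genes. None passed 1 in HCT116, where 5.52% of all genes did. The 3 include TGFB3, which is outside the rule for named genes. It passed the filter only through its level in the LOVO-labelled spheroids, 10.3 FPKM. GDF15, a distant family member induced by cell stress, had the highest mean level. It had 232 and 214 FPKM in adherent and spheroid HCT116, and 57.7 and 9.57 in the libraries labelled LOVO, a log2 fold change of -2.47.

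Among BMP ligands, the main transcript differed between the lines. BMP2, the closest relative of BMP4, had 1 read in each HCT116 library, but 206 FPKM in the adherent library labelled LOVO and 17.3 in its spheroids, a log2 fold change of -3.50. BMP4 made up 75.6% and 84.9% of the summed FPKM of the 11 BMP ligands in adherent and spheroid HCT116, but 1.04% and 3.64% in the libraries labelled LOVO. There BMP2 made up 85.5% of the sum in adherent cells and 43.4% in spheroids. BMP6, which is outside the rule for named genes and was picked after its values were seen, made up 40.5% of the sum in the LOVO-labelled spheroids. From adherent cells to spheroids the sum itself went from 91.8 to 141 FPKM in HCT116 and from 241 to 39.9 in the libraries labelled LOVO. The ligand sum and the sum of ID1, ID2 and ID3 thus had the same order between adherent cells and spheroids within each line, a description over 4 libraries. Between the lines the orders differed. The adherent library labelled LOVO had the highest ligand sum, but its ID sum, 227 FPKM, lay below those of adherent and spheroid HCT116, 349 and 558. A link between the 2 sums was not tested.

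**Figure D4:**
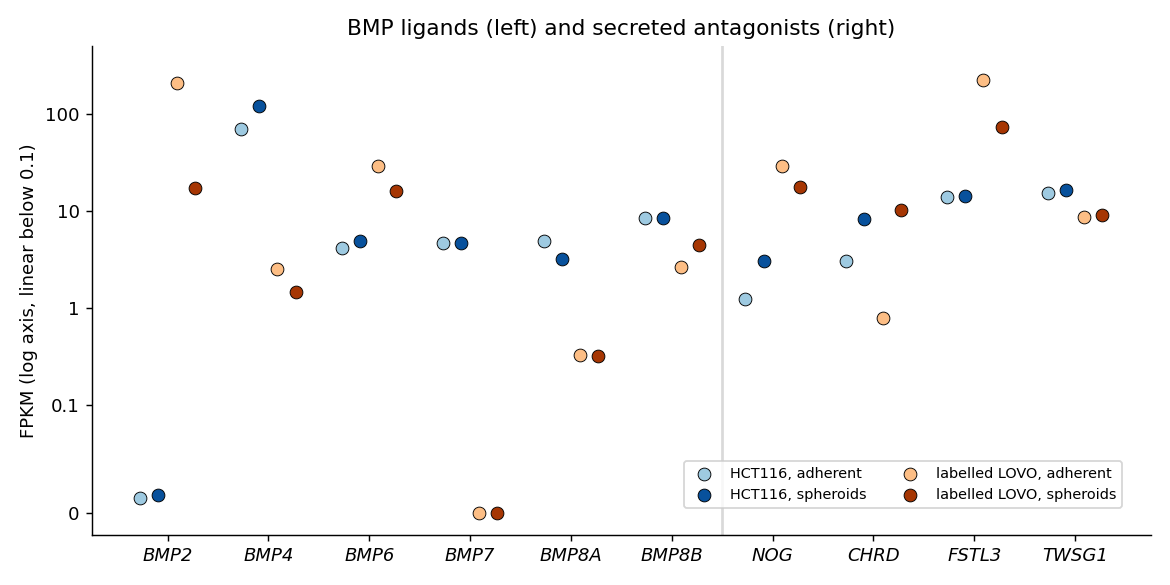
FPKM (log axis, linear below 0.1) of the 6 BMP ligands that passed the filter, left, and of the 4 secreted antagonists that passed it, right, with 1 point per library. BMP4 is the highest ligand in HCT116 (69.4 and 119 FPKM), and BMP2 is the highest in the libraries labelled LOVO (206 and 17.3 FPKM).

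Genes that store and release latent TGF-β were higher past 1 in 4 of 7 cases in the libraries labelled LOVO, against 8.57% of all genes, with a median of 1.09. In HCT116 this held for 1 of 7, against 2.19% of all genes, with a median of 0.37. The 4 in the libraries labelled LOVO include LTBP2, which is outside the rule for named genes. It passed the filter only through its level in the LOVO-labelled spheroids, 2.20 FPKM. ITGB8, the β subunit of a latent TGF-β activating integrin, was higher in both spheroids, from 0.971 to 3.32 FPKM in HCT116 and from 2.70 to 16.6 in the libraries labelled LOVO. THBS1, a matrix protein that can release the ligand, was lower in both, from 10.2 to 4.41 and from 15.7 to 3.45 FPKM. For LTBP4, a latent TGF-β binding protein, the log2 fold changes were 0.12 (HCT116) and 1.62 (labelled LOVO).

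None of the 8 type I and type II receptors compared passed 1 in either line. Of all genes, 5.52% did in HCT116 and 16.4% in the libraries labelled LOVO. These shares apply to the other lists of this paragraph too. Of 3 co-receptors, BAMBI, a BMP-inducible pseudoreceptor without kinase activity, had 8.40 and 18.4 FPKM in adherent and spheroid HCT116 and 20.1 and 7.04 in the libraries labelled LOVO. SMAD3, the SMAD with the highest mean level, had log2 fold changes of -0.83 (HCT116) and 0.83 (labelled LOVO), within a list of 5 SMADs of which none passed 1. Of the 8 inhibitory SMADs, SMAD ubiquitin ligases and corepressors, 6 lay above 0 in HCT116, against 45.8% of all genes. In the libraries labelled LOVO 1 lay above 0 and 7 below, against 45.5% of all genes above 0. None passed 1 in either line. SMURF2, a ubiquitin ligase that partners SMAD7, had 34.7 and 38.3 FPKM in HCT116 and 4.05 and 2.98 in the libraries labelled LOVO.

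Among the secreted antagonists, CHRD (chordin, which binds BMP ligands) was higher in both spheroids, from 3.08 to 8.31 FPKM in HCT116 and from 0.783 to 10.3 in the libraries labelled LOVO. FSTL3, which binds activin, had 14.1 and 14.3 FPKM in HCT116, and went from 224 to 73.1 in the libraries labelled LOVO. TCF3, a helix-loop-helix partner that ID proteins bind, had log2 fold changes of -0.14 and -0.04.

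The BMP target list, which holds ID1, ID2, ID3 and SMAD7, had 9 genes compared. In HCT116, 8 lay above 0, against 45.8% of all genes, with a median of 0.74. There 3 passed 1, MSX2, BAMBI and ATOH8, with 1.11, 1.05 and 1.02, and with TMM scaling MSX2 alone did. In the libraries labelled LOVO, none lay above 0, 8 lay below it and 5 passed 1 downwards, against 7.85% of all genes, with a median of -1.39. The 5 were ID1, ID2 and ID3, which are among the genes chosen by name, with BAMBI and ATOH8. ATOH8 passed the filter only through its level in the adherent library labelled LOVO. The list was chosen with earlier results of these data known, so its counts and medians are a description. Higher in HCT116 spheroids and lower in the LOVO-labelled spheroids were 7 of the 9, ID1, ID2, ID3, SMAD6, SMAD7, BAMBI and ATOH8, against 17.9% of all genes. Of these 7, 4 are among the 9 genes chosen by name. ATOH8, a helix-loop-helix factor, had 0.202 FPKM (25 reads) and 1.44 (147 reads) in adherent and spheroid HCT116, and 11.3 (1230 reads) and 0.409 (50 reads) in the libraries labelled LOVO. SMAD6, the other inhibitory SMAD, is outside the rule for named genes and had log2 fold changes of 0.74 and -0.82. The remaining 2 genes of the list were MSX1, lower in both, and MSX2, listed at 0 reads in both LOVO-labelled libraries.

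The TGF-β target list of 12 genes showed no such common sign. In HCT116, 6 lay above 0 and 6 below, against 45.8% of all genes above 0. In the libraries labelled LOVO, 8 lay above and 4 below, against 45.5% above. In HCT116 1 was higher and 3 were lower past 1, where 5.52% of all genes passed 1 in either direction. In the libraries labelled LOVO 5 were higher and 2 lower past 1, against 8.57% and 7.85% of all genes. The 5 include LTBP2, which passed the filter only through its level in the LOVO-labelled spheroids. The medians were 0.02 and 0.47. Of the 12, 2 were higher in HCT116 spheroids and lower in the LOVO-labelled spheroids, near the 17.9% of all genes. Another 4 had the opposite pair of signs. CTGF, a matricellular growth factor, was lower in both spheroids, with log2 fold changes of -2.08 and -2.48. CDKN1A, the cell cycle inhibitor p21, had 202 and 201 FPKM in adherent and spheroid HCT116 and 24.5 and 63.9 in the libraries labelled LOVO.

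**Figure D5:**
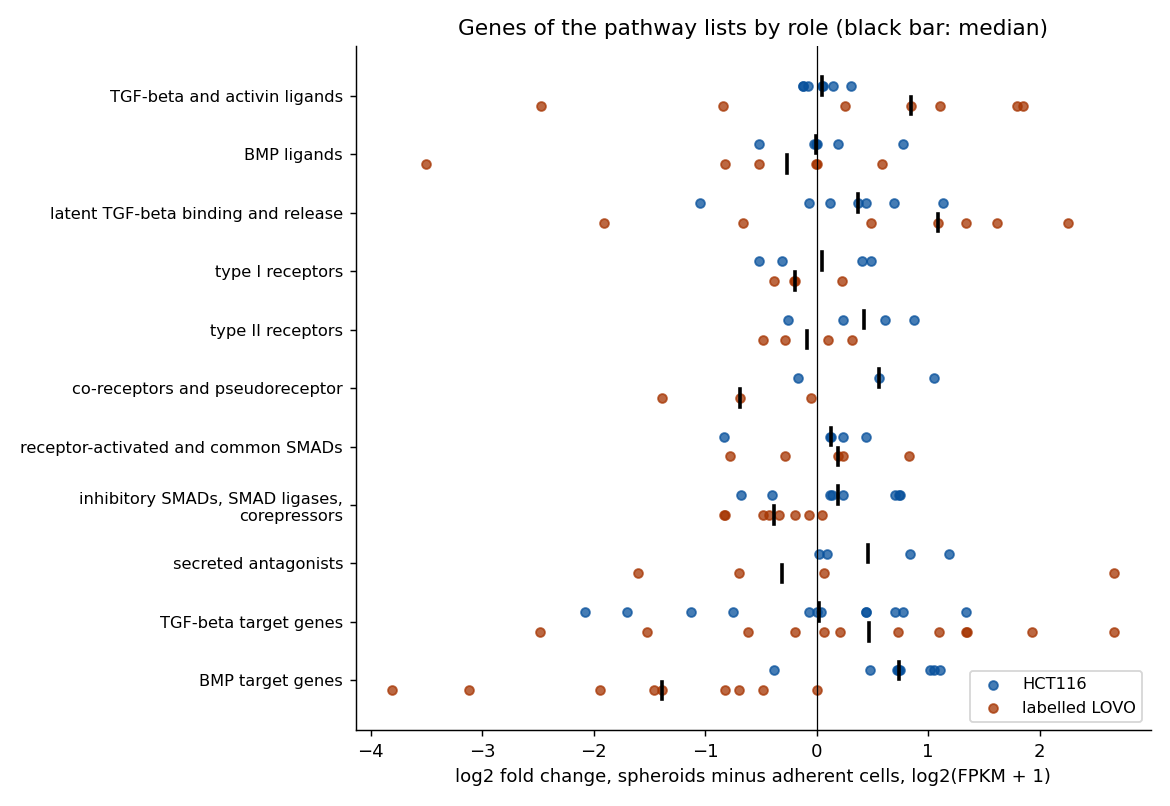
Log2 fold change of spheroids over adherent cells, log2(FPKM + 1), for the genes compared in 11 of the role lists, with HCT116 in blue, the libraries labelled LOVO in orange and the median of each list as a black bar. The BMP target genes have medians of 0.74 in HCT116 and -1.39 in the libraries labelled LOVO, the widest gap of the lists drawn, which leave out the ID family (0.72 and -1.94) and its helix-loop-helix partners.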

How the data were processed

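RNA was sequenced from 1 library for each of 4 conditions, prepared per the labels with the SMARTer mRNA-Seq kit. The authors deposited FPKM values for 58735 genes with their lengths and GRCh38 coordinates. All identifiers are in GENCODE 29, and 58724 have the same start and end. The submitters' processing notes name mouse builds, GRCm38 and mm10, although the table is human. The aligner, the counter and strand handling are not given in the sources used here.

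Multiplied by gene length, 100% of the FPKM values above 0 were whole multiples of 1 step per library (tolerance 0.001), which gave the reads. The library sizes behind the deposited FPKM were 0.907 to 1.09 times the reads on genes, so the authors' values already carry a scaling.

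Log2 fold changes used a pseudocount of 1, and a gene was compared when its FPKM averaged 1 or more. Ratios carry exact Clopper-Pearson intervals. limma 3.58.1 (R 4.3.3) was fitted across all genes compared and was tested on simulated data. There the changed genes moved alike in both lines. That test does not show how the fit performs where the lines differ, as they did here. Python 3.11.15 with numpy, pandas and scipy computed the rest. Named genes outside the 9 were those past 1 in the same direction in both lines, those past 2 in either line, and the most abundant of each role. The values of 1 gene that this rule names are not reported here. The genes and lists were chosen with earlier results of these data known. Alternatives changed the pseudocount, filter, scaling, gene types and covariate.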

Additional observations from a re-analysis of the deposited data

Results flagged for a closer look

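Of the 9 genes, 6 had opposite signs in the 2 lines, that is, the single pair of libraries moved one way in HCT116 and the other way in the libraries labelled LOVO. On the log2(FPKM + 1) scale, spheroids minus adherent cells gave 0.49 in HCT116 and -0.20 in the libraries labelled LOVO for TGFBR1, 0.75 and -0.48 for SMAD7, and 0.77 and -0.52 for BMP4. The pair was 0.72 and -1.46 for ID1, 0.73 and -1.94 for ID2, and 0.48 and -3.81 for ID3. With 1 library per condition the difference between the lines was not tested, and 35.8% of all genes compared had opposite signs.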

How the results depend on the processing

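No library could be left out, since each condition had 1, and the limma fit with the cell line as covariate was the paired analysis. Count-based tests of the recovered reads were planned and not run, since the deposited unit is FPKM. The 6 opposite signs held for every alternative in which the gene was compared, and TGFB2 and SMAD7 were not compared at a mean FPKM of at least 5. A changed pseudocount, filter or gene type cannot change the sign of a gene. Only the alternatives of scaling, and centring on the median of all genes, could have done so. Of the alternative values of the 9 genes, 286 moved by no more than the counting error and 30 by more. The 286 include every value under a changed filter or gene type, which leaves a gene's own value as it was. Of the 30, 1 changed sign, TGFBR2 in spheroids between lines, from -0.11 to 0.11 in TPM. ID2 in the libraries labelled LOVO was -3.27 and -3.57 with pseudocounts of 0.1 and 0.01. The number of the 9 genes past 2 in these libraries was 1, and it was 2 with either lower pseudocount and 3 in TPM. In adherent cells between lines it was 2, and 3 with either lower pseudocount and in TPM. With TMM scaling, 4 genes of the pathway lists, not 6, were higher past 1 in HCT116, without BAMBI and ATOH8. limma called 0 genes under each of 9 alternatives, with 163 (no covariate) to 1906 (no filter) at an unadjusted p under 0.05. Depth limits TGFB2 in HCT116 (13 and 21 reads) and ID2 in the LOVO-labelled spheroids (15 reads).

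Counts over all genes moved as follows. Past 1 they were 796 in HCT116, 2369 in the libraries labelled LOVO, 4874 between adherent cells and 4716 between spheroids, and past 2 they were 102, 397, 1566 and 1498. With a pseudocount of 0.1 they were 1524 and 3676 past 1 within the lines, and 312, 1022, 2906 and 2651 past 2. With 0.01 they were 1786 and 3951 past 1, and 458, 1269, 3064 and 2800 past 2. At a mean FPKM of at least 5 they were 494, 1460, 2631 and 2476 past 1, and 252, 917 and 846 past 2 outside HCT116. In TPM they were 1238 past 1 in HCT116, and 209, 848, 2545 and 2468 past 2, and the median of all genes in the libraries labelled LOVO moved from -0.06 to 0.10 and that between the lines in spheroids from 0.04 to 0.26.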
